A study of Mus musculus with 2 samples.

Results

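The genes described here encode the subunits of the proteasome and the proteins that assemble or activate it. They were taken by symbol: every gene whose symbol starts with Psma, Psmb, Psmc, Psmd or Psme and a digit, without the interferon-induced catalytic genes Psmb8, Psmb9 and Psmb10, and with the row of the highest mean where a symbol had several. This gave 42 of 20722 genes. They fall into 8 genes of the core alpha ring, 8 of the core beta ring, 6 ATPases of the base, 3 base subunits without ATPase activity, 8 lid subunits, 3 assembly chaperones and 4 activators, and 2 genes that the symbol pattern takes in although they have no place in these groups (Psmc3ip and Psme2b). Of the 42 genes, 34 had a mean normalised count of at least 20 over both libraries and are called measured, as were 6001 of all genes.

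RNA from villi of the small intestine was sequenced in C57BL/6 mice, with 1 library for each genotype. The control library came from a mouse labelled Rosa26-CreERT2 Cdkn2a-/-, in which a tamoxifen-inducible Cre recombinase is expressed from the ubiquitous Rosa26 locus and Cdkn2a is lost. The other library was labelled with the same alleles plus Ring1a-/- and Ring1bf/f, a constitutive loss of Ring1 and a floxed Rnf2, and is called dKO-labelled (double knockout). Both genotypes received 3 tamoxifen injections and were taken at 6 days. Ring1 and Rnf2 encode the ubiquitin ligases of Polycomb repressive complex 1, and the comparison asks how villus expression differs when both are targeted. The labels give neither the ages of the mice nor whether animals were pooled.

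The proteasome degrades proteins tagged with ubiquitin. Its barrel-shaped 20S core has outer alpha rings that gate the entry and inner beta rings, in which 3 subunits carry the proteolytic sites. The 19S regulatory particle caps the core: its base has a ring of ATPases that unfold the substrate, and its lid removes the ubiquitin chain. Other activators can take the place of the cap. The subunits are assembled in fixed proportions, and the transcription factor NRF1 (gene Nfe2l1) is known to raise their genes together when the proteasome is impaired. In the gut epithelium, interferon brings in the alternative catalytic subunits of the immunoproteasome.

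With 1 library on each side, nothing below could be checked against replicates, and no p-value was computed for a difference between the genotypes. Calls of tests that set library against library are given at the end. Intervals are exact 95% intervals for the ratio of reads and cover counting error only, and reads from PCR are not independent molecules. The control library held 775827 reads and the dKO-labelled library 1058196. Rnf2 had 59 and 82 reads (ratio 1.25, 0.886 to 1.78) and Ring1 10 and 10 (0.901, 0.337 to 2.41). Neither targeted gene was lower beyond counting error, but the interval of Ring1 is too wide to exclude a large loss. Counts over whole transcripts do not show deleted exons. All 11 enterocyte markers were detected in both libraries, with 11933 and 15007 reads in all, but unevenly: Sis had 37 and 357 reads and Lct 184 and 847, while Cdh1 had 1102 and 1032 and Apoa1 1552 and 1560. Ratios below are scaled by the size factors that the authors deposited. On that scale the median log2 ratio of the 6001 measured genes was 0.51, so many genes of these libraries lay above 0, and each count is set beside the share of measured genes that met the same rule.

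Upstream sequences of 4 of these genes are shown first, because they show the sequence patterns searched for in the promoters of all members. They run from 250 bases before to 10 bases after the RefSeq start in assembly GRCm38.p6, on the strand of the gene. Psmb5 and Psmb6 encode catalytic subunits and hold the core of an antioxidant response element, the kind of site that NRF1 binds (TGACNNNGC). Psmc1 was among the members with the highest ratios and Psmd13 had the lowest. Capitals mark TGACNNNGC, CCAAT and CCGGAAG on either strand.
Psmb5 (chr14:54617986-54618245, minus strand): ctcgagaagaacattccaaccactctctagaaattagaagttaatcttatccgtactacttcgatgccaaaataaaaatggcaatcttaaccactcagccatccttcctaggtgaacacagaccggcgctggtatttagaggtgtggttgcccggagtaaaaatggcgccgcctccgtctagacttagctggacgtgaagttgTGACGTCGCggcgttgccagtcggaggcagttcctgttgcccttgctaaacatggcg
Psmb6 (chr11:70525107-70525366, plus strand): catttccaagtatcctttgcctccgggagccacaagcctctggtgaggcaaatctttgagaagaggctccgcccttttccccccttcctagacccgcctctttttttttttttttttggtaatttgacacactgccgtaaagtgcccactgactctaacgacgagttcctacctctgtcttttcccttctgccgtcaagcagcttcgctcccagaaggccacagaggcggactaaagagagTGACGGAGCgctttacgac
Psmc1 (chr12:100109952-100110211, plus strand): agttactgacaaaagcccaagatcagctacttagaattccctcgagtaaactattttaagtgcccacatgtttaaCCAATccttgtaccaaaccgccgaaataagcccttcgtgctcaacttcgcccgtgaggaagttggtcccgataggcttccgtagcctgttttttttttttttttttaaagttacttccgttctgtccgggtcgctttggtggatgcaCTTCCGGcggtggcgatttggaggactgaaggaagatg
Psmd13 (chr7:140882144-140882403, plus strand): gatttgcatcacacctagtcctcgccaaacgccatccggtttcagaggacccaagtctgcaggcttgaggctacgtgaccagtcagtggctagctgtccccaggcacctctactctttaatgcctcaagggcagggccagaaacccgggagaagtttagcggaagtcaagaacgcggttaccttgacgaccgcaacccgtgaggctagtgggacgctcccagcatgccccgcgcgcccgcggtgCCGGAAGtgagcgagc

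The antioxidant response match began 47 bases before the start in Psmb5 and 9 bases before it in Psmb6. Psmc1 had CCAAT at 175 bases before the start and, read from the other strand, CCGGAAG at 28. In Psmd13 the CCGGAAG began 6 bases before the start and ran into the transcript. RefSeq windows of 300 bases, from 250 before to 50 after a start, were found for 35 of the 42 members, 38 windows in all. The ETS-type pattern CCGGAAG, the kind of site bound by ETS family factors, stood in 14 of 38 member windows (36.8%) against 8.9% of all 32851 windows. TGACNNNGC was in 6 (15.8%, against 12.4%), CCAAT in 14 (36.8%, against 37.4%) and GCCAAT, which is contained in the CCAAT matches, in 12 (31.6%, against 14.7%). The other patterns were GCATGCGC in 2 windows (5.3%, against 2.7%), AAGATGGC in 3 (7.9%, against 2.7%) and TGACGTCA in 0, against 1.8%. Both strands were searched, and the 7 patterns were chosen with the data known.

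Ratios of members with and without a pattern were set side by side. The 6 measured genes with TGACNNNGC (Psmb5, Psmb6, Psmc6, Psmd9, Psmd12 and Psme4) had a median log2 ratio of 0.61, and the 22 measured genes whose windows lacked it 0.79. With CCGGAAG the median was 0.73 over 10 genes, and 0.78 over 18 without it. These medians describe 2 libraries, and a match is not a bound site.

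Proteasome genes as a whole took a larger part of the dKO-labelled library. The 34 measured members had 4199 reads in the control, 0.541% of that library (0.525 to 0.558, Clopper-Pearson), and 7539 in the dKO-labelled one, 0.712% (0.697 to 0.729). Summed, they were 1.62-fold higher on the deposited scale (1.56 to 1.68), where all measured genes summed gave 1.21. Of the 34, 33 had a log2 ratio above 0, against 75.4% of measured genes. Their median log2 ratio was 0.79, which is 0.28 above that of the measured genes, and 27 of 34 lay above that median, as by definition 50.0% of measured genes do. In RNA from a mixed tissue, a change in the number of cells of a type and a change in RNA per cell cannot be told apart.

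The shift was modest in size for most subunits, and ratios spread less over the members than over all measured genes. Only 5 of 34 members were at least 2-fold higher (Psma4, Psmb2, Psmc1, Psmd3 and Psmd7), 14.7% against 26.2% of measured genes, and 0 were at least 2-fold lower, against 4.18%. Relative to the median of measured genes 1 member, Psmb2, was at least 2-fold above (2.94%, against 11.8%) and 0 were 2-fold below (background 10.4%). The middle range of the members, from the lower to the upper quartile, ran from 0.57 to 0.93 on the log2 scale, a width of 0.36. For all measured genes it ran from 0.01 to 1.03, a width of 1.02. Members were more highly counted than the typical measured gene (median of the mean normalised count 152 against 75.7), which narrows counting error, yet once only means of 100 or more are kept the widths were 0.34 for 27 members and 0.87 for 2414 genes.

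**Figure D1:**
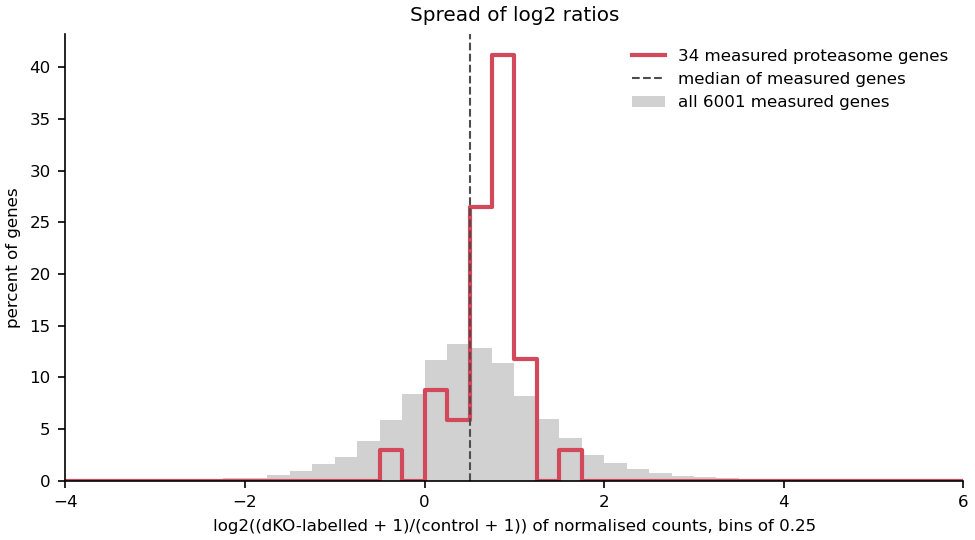
Percent of genes (vertical axis) in bins of 0.25 of the log2 ratio (horizontal axis), for the 6001 measured genes (grey bars) and the 34 measured proteasome genes (red line). The members form a narrow peak to the right of the dashed median of 0.51, with Psmd13 alone below 0 at -0.38 and Psmb2 alone above 1.5 at 1.65.

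Most subunits could not be told apart from the summed ratio within counting error. The interval of 26 of the 34 members (76.5%) held the summed ratio of 1.62, against 45.9% of measured genes. The exceptions above it were Psma4, Psmb2, Psmc1 and Psmd7 (11.8%, background 18.4%), and those below it Psmb4, Psmb5, Psmd13 and Psme4 (11.8%, background 35.7%). The summed ratio was computed from these same members, so intervals of members are bound to hold it more often than those of other genes. The shares of measured genes therefore cannot show whether the subunits shifted alike. Without Psmd13 and Psmb2, which lay at the 2 ends and were set aside after their values were seen, the summed ratio was 1.66 (1.60 to 1.73).

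**Figure D2:**
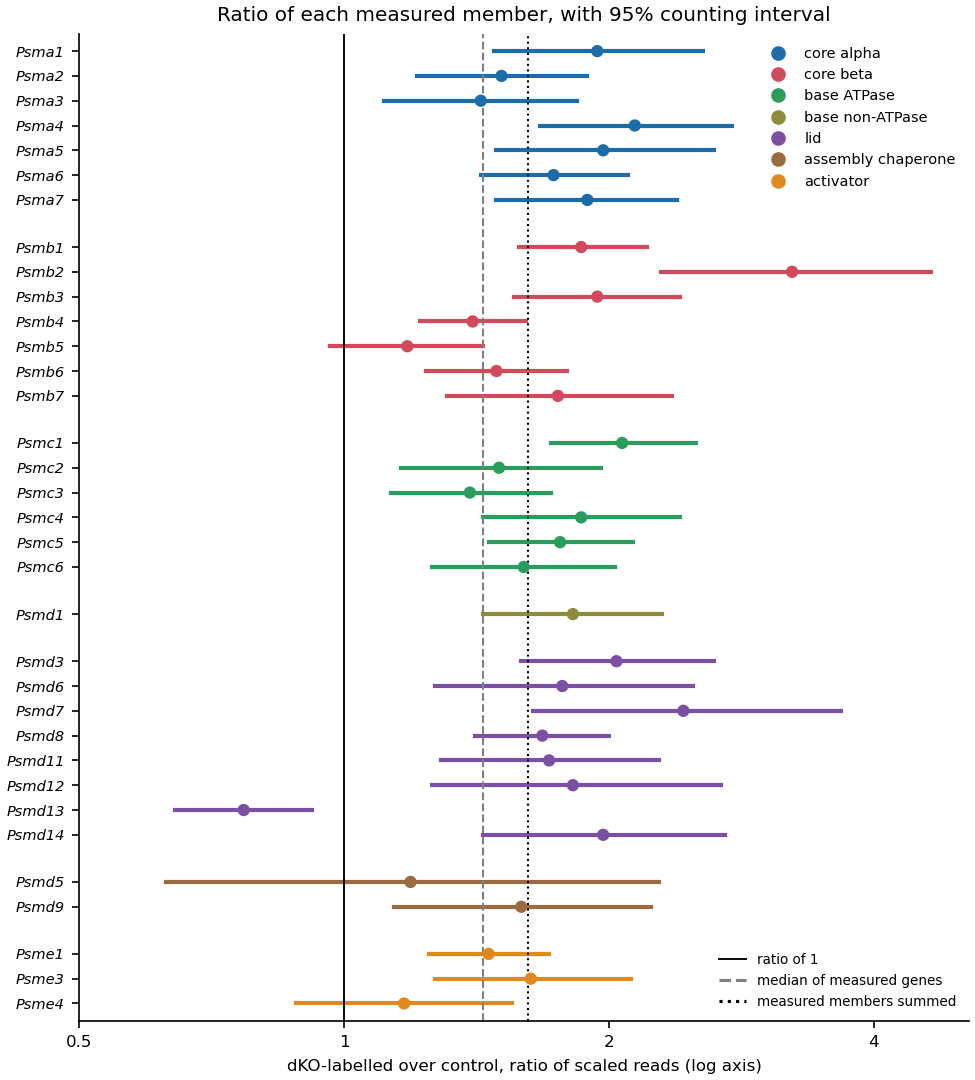
Ratio of scaled reads in the dKO-labelled over the control library (horizontal log axis) for each measured member, coloured by group, with the 95% counting interval as a line. Vertical lines mark 1, the median ratio of measured genes (1.44, dashed) and the members summed (1.62, dotted). Psmd13 is the only member whose interval lies below 1 (0.643 to 0.920), and Psmb2 lies farthest right (2.29 to 4.64).

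The alpha ring, which forms the gate of the core, had ratios above 1 in all its measured genes on the deposited scale. Its 7 measured genes had 757 control reads and 1486 dKO-labelled reads, a summed ratio of 1.77 (1.62 to 1.93), and a median log2 ratio of 0.90 with a range of 0.51 to 1.08. Psma4 stood highest, with 93 and 221 reads (2.14-fold, 1.67 to 2.76). Psma3 was lowest at 106 and 168 reads (1.43-fold, 1.11 to 1.84). The intervals of these extremes overlapped between 1.67 and 1.84.

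The other alpha genes lay between them. Psma1 had 80 and 172 reads, Psma2 129 and 216, Psma5 75 and 164, Psma6 165 and 317, and Psma7 109 and 228. All 7 measured alpha genes had an interval above 1, as did 52.5% of measured genes, and with an upper-quartile scaling the log2 ratios of Psma2 (-0.10) and Psma3 (-0.18) were below 0. Against the median ratio of measured genes (1.44), the intervals of Psma1, Psma4, Psma5 and Psma7 lay above, as did those of 24.8% of measured genes. The intervals of Psma2, Psma3 and Psma6 held that median. Psma8, the paralog of Psma7 used in the testis, had 0 and 1 reads, at or under the floor of 3 reads that a count of 0 allows, and no ratio is given for it.

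The beta ring spread more widely, and its structural and catalytic genes overlapped. Over 7 measured genes the reads were 1179 and 2106, a summed ratio of 1.61 (1.50 to 1.73) and a median log2 ratio of 0.79. Among the structural genes, Psmb2 had 43 control reads and 154 dKO-labelled reads, 3.23-fold higher (2.29 to 4.64), the highest ratio of all measured members. Psmb1 had 211 and 436 reads, Psmb3 126 and 271, and Psmb4 351 and 545. Psmb4 was the most abundant member by reads in both libraries, and its ratio of 1.40 (1.22 to 1.61) lay below that of the summed members.

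The 3 genes for catalytic subunits had ratios from 1.18 to 1.75, a range that takes in the structural Psmb4 (1.40). Like every other measured member they lay below Psmb2, although the interval of Psmb7 overlapped that of Psmb2. Psmb7, which carries the trypsin-like site, had 73 and 142 reads (1.75-fold, 1.31 to 2.36). Psmb6, which carries the caspase-like site, had 198 and 327 (1.49-fold, 1.24 to 1.79). Psmb5, which carries the chymotrypsin-like site and binds the drug bortezomib, had 177 and 231 (1.18-fold, 0.963 to 1.44), an interval that holds 1. RefSeq lists pseudogenes of Psma5, Psmb5, Psmb6 and Psmb7 (6 in all), so reads of these genes can be shared and their values are uncertain.

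Ratios between members within a library do not depend on the scaling. Psmb2 reads were 0.0379 of those of the other measured beta genes in the control against 0.0789 in the dKO-labelled library, a 2.08-fold change (1.46 to 3.02, exact conditional interval). For Psmb5 the same quotient went from 0.177 to 0.123, a change of 0.697 (0.562 to 0.866). Alpha over beta reads were 0.642 and 0.706, a change of 1.10 whose interval (0.980 to 1.23) holds 1. Without Psmb2 the beta ring was at 1.55 (1.44 to 1.67). These quotients were chosen after the values were seen. Psmb11, the beta gene of the thymic cortex, had 4 and 8 reads and was not measured.

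The ATPases of the base, Psmc1 to Psmc6, form the ring that unfolds substrates and opens the core, and all 6 were measured. Their reads summed to 779 and 1478 (1.71-fold, 1.57 to 1.87), with a median log2 ratio of 0.74. Psmc1 was highest at 161 and 370 reads (2.07-fold, 1.72 to 2.51), and Psmc3 lowest at 149 and 230 (1.39-fold, 1.13 to 1.72). To 2 decimals the lower limit of Psmc1 equals the upper limit of Psmc3.

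Between them, Psmc2 had 96 and 160 reads, Psmc4 92 and 190, Psmc5 168 and 328, and Psmc6 113 and 200. All 6 ATPase genes had intervals above 1, a rule that 30 of 34 members (88.2%) and 52.5% of measured genes met. Psmc3ip, which the symbol pattern also matches, encodes a partner of meiotic recombinases rather than an ATPase, and had 0 and 3 reads.

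Of the base subunits without ATPase activity, Psmd1, a large scaffold, had 112 and 226 reads (1.82-fold, 1.44 to 2.30). The others could not be assessed. Psmd2, the other large scaffold, had 0 and 2 reads, and the ubiquitin receptor Psmd4 5 and 7 (1.26-fold, 0.345 to 5.04). Each has 2 curated RefSeq transcripts, of which 1 is in the table used here, for Psmd2 a non-coding one (NR_027485). The assembly chaperone Psmd10 (gankyrin), also with 1 of 2 curated transcripts in the table, had 4 and 5 reads. Such low counts are no measure of these genes' expression. Among the measured members, Psma3, Psma6, Psma7, Psmc2 and Psmd5 also have more curated transcripts than rows in the table, and their levels may be incomplete.

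The lid held both extremes of the 19S particle. Psmd7, the inactive partner of the lid's deubiquitinase, had 36 and 97 reads (2.43-fold, 1.64 to 3.67). Psmd14, the deubiquitinase that cuts the ubiquitin chain from the substrate, had 61 and 133 (1.97-fold, 1.44 to 2.71). Psmd3, a scaffold subunit, had 92 and 208 (2.04-fold, 1.59 to 2.63). These 3 genes had intervals that overlapped each other.

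Psmd13, a structural lid subunit, went the other way. Its control count of 273 reads was the most of any lid gene there, and its dKO-labelled count was 233, 1.30-fold lower (1.09 to 1.55). It was the only member with an interval below 1 (2.94% of members, against 12.1% of measured genes), and it and Psmb5 were the members whose intervals lay below the median ratio of measured genes (5.88%, against 28.8%). Set against the other 7 lid genes within each library, Psmd13 reads were 0.481 of theirs in the control against 0.201 in the dKO-labelled library, a change of 0.418 (0.340 to 0.514). Sirt3, which overlaps Psmd13 on the other strand in GENCODE M21, had 0 and 0 reads in the table. Use of strand was not given, and whether reads of Sirt3 enter the Psmd13 count was not tested. Another gene overlaps an exon in 9 measured members, Psmd13 among them.

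The remaining lid genes stayed close together. Psmd6 had 56 and 110 reads, Psmd8 201 and 374, Psmd11 78 and 148, and Psmd12 44 and 89, with ratios between 1.68 and 1.82. Over all 8 lid genes the reads were 841 and 1392 (1.49-fold, 1.37 to 1.63). Without Psmd13 they were 568 and 1159 (1.84-fold, 1.66 to 2.04), so that 1 gene accounts for the lower sum of the lid. The ratio of 19S to 20S reads was 0.895 in the control against 0.862 in the dKO-labelled library, a change of 0.963 whose interval (0.888 to 1.05) holds 1. Lid over ATPase reads, with Psmd13 in the lid, were 1.08 and 0.942, a change of 0.872 whose interval (0.771 to 0.987) leaves out 1. That direction rests on Psmd13. Without it the summed ratio of the lid, 1.84 (1.66 to 2.04), was above that of the ATPases, 1.71 (1.57 to 1.87), with overlapping intervals.

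**Figure D3:**
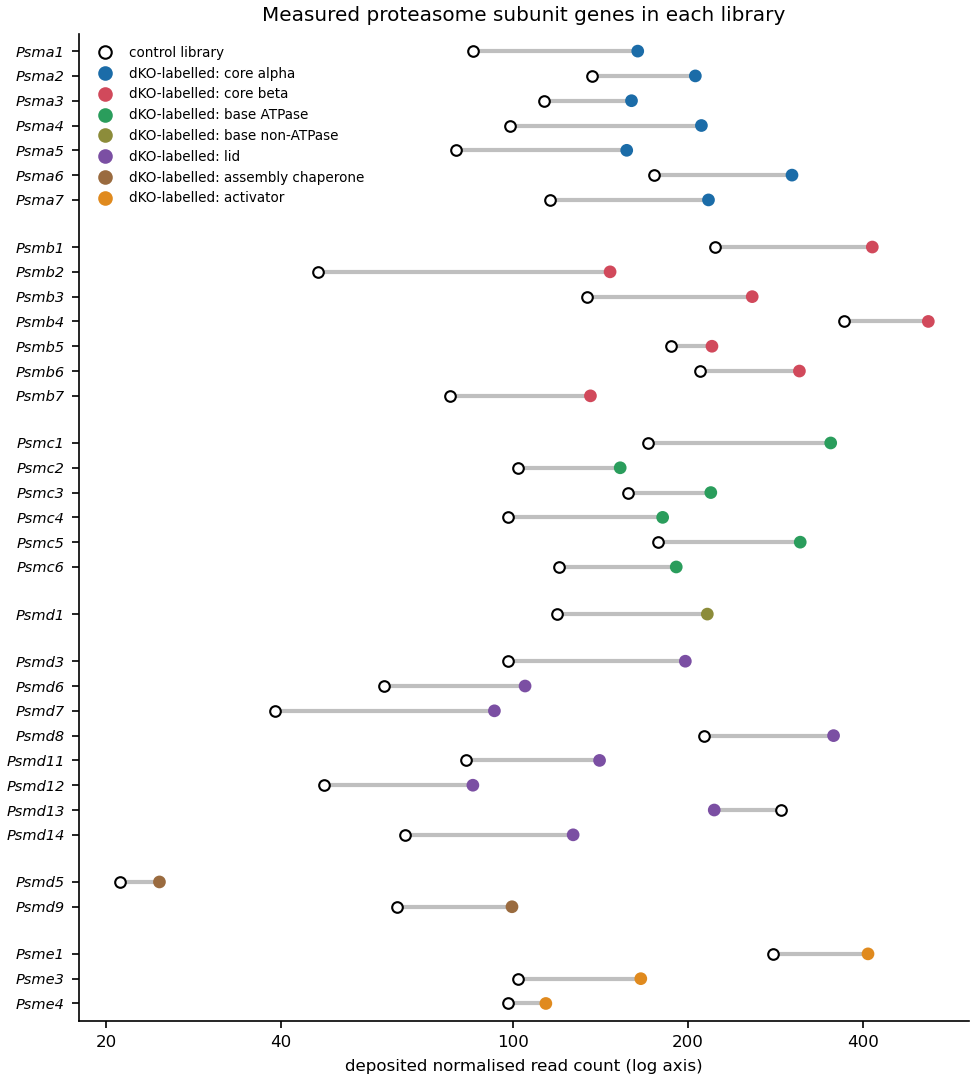
Deposited normalised read count (horizontal log axis) of each measured member in the control library (open circles) and the dKO-labelled library (filled circles, coloured by group), joined by a line. In every gene but Psmd13 the filled circle lies to the right, and the lines of most genes have a similar length.

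Assembly chaperones and activators had summed ratios of 1.49 (1.12 to 2.00, 2 measured genes) and 1.44 (1.28 to 1.62, 3 genes), and their intervals overlapped that of the 20S core (1.67, 1.58 to 1.77). Psmd9, a chaperone of the base, had 59 and 104 reads (1.59-fold, 1.14 to 2.23), and Psmd5, another, 19 and 25 (1.19-fold, 0.627 to 2.28), too few to show a difference. Psme1, a subunit of the interferon-inducible PA28 activator that opens the gate without ATP, had 265 and 429 reads (1.46-fold, 1.25 to 1.71). Its partner Psme2 had only 8 and 24 (2.70-fold, 1.18 to 6.96), and its paralog Psme2b 2 and 1. Reads of Psme2, which has 2 rows in the table, can be shared with Psme2b, and its value is uncertain.

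Psme3, which forms a nuclear activator, had 96 and 174 reads (1.63-fold, 1.27 to 2.12). Psme4 (PA200), an activator linked to histone degradation, had 92 and 119 (1.17-fold, 0.881 to 1.55). Within each library, Psme4 reads were 0.0475 of the 20S reads in the control against 0.0331 in the dKO-labelled library, a change of 0.697 (0.524 to 0.931). For Psme1 and Psme3 the changes were 0.873 (0.739 to 1.03) and 0.977 (0.752 to 1.27), and both intervals hold 1. The 3 measured activators had a median log2 ratio of 0.54.

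Levels were also set per transcript length, with lengths from GENCODE M21, since long transcripts collect more reads. Normalised counts per kb spanned a 65.4-fold range over the 34 members in the control and a 78.1-fold range in the dKO-labelled library, but a 7.91- and 7.77-fold range over the 14 core genes. Psmb4 was highest per kb in both libraries (313 and 438 normalised counts per kb), followed by Psmb6 (263 and 390) and Psme1 (252 and 367). Psmd5 (4.79 and 5.61) and Psme4 (15.1 and 17.6) were lowest. Medians per kb were 71.0 and 137 for the alpha genes, 175 and 245 for the beta genes, 82.3 and 130 for the ATPases, and 42.8 and 79.3 for the lid.

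The order of the members was largely kept. Across the 34 genes, the log2 levels per kb of the libraries had a Pearson r of 0.96 and a Spearman rho of 0.96, a description of genes that share transcript lengths between libraries. Psmd13 was highest of the lid in the control (145 normalised counts per kb, next to Psmd8 at 141), and in the dKO-labelled library it stood at 112, below Psmd8 at 235. Psmb2, lowest of the beta genes in the control at 54.0 per kb, reached 171 and lay above Psmb7 (117). Some models, such as those of Psma2 and Psma3 (2911 and 2846 bases), are long for the family, and levels per kb of these genes depend on the model. The log2 ratio had a Pearson r of -0.39 with log2 length and -0.12 with log2 mean count over the 34 genes.

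**Figure D4:**
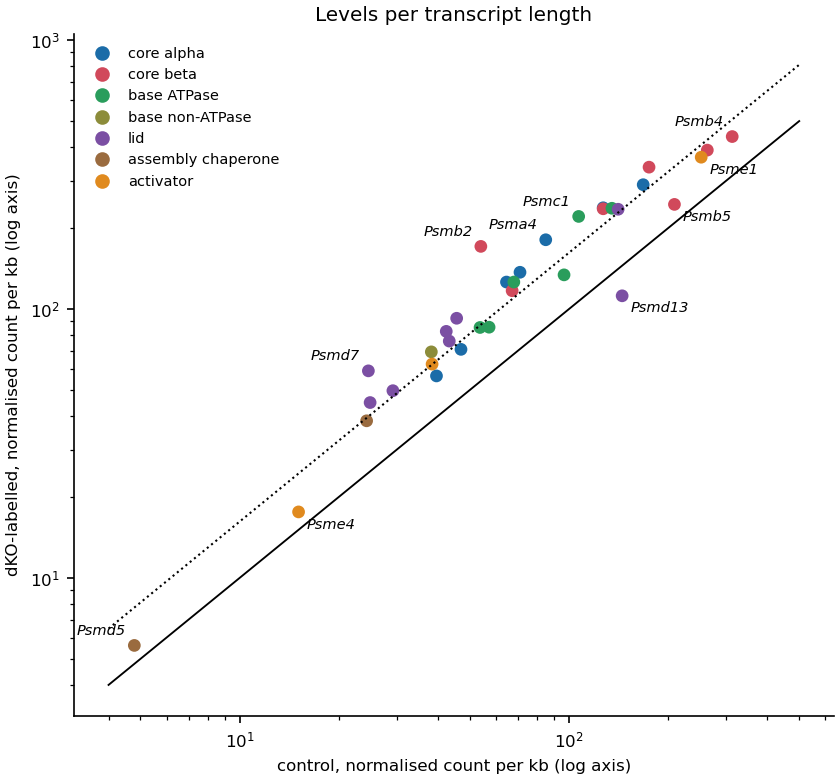
Normalised count per kb of transcript in the control (horizontal) and the dKO-labelled library (vertical), both log axes, for the 34 measured members, coloured by group. The solid line marks equal levels and the dotted line the summed ratio of 1.62. Most points follow the dotted line, Psmd13 lies below the solid line and Psmb2 above the dotted line.

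The immunoproteasome genes, whose products replace those of Psmb5, Psmb6 and Psmb7 after interferon, had a summed ratio of 1.16 (1.05 to 1.28). This was below the 1.62 of the measured members, but the interval holds the 1.21 of all measured genes summed. Psmb8 had 255 and 289 reads (1.02-fold, 0.860 to 1.21), Psmb9 120 and 139 (1.04-fold, 0.812 to 1.34) and Psmb10 320 and 465 (1.31-fold, 1.13 to 1.51). All 3 ratios were below the median ratio of measured genes (1.44), although the interval of Psmb10 holds it. Together they had 1.55 times the reads of the 3 constitutive catalytic genes in the control and 1.28 times in the dKO-labelled library, a change of 0.822 (0.702 to 0.963). By pair, the change was 0.868 (0.665 to 1.13) for Psmb8 over Psmb5, 0.701 (0.513 to 0.959) for Psmb9 over Psmb6 and 0.747 (0.536 to 1.04) for Psmb10 over Psmb7, so that the intervals of the first and the last pair hold 1.

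Other genes around the proteasome were followed in 6 lists of 42 genes, of which 41 were in the table and 27 measured. Of these 27, 4 were at least 2-fold higher and 0 lower, against 26.2% and 4.18% of measured genes, and 11 lay above the median of measured genes. Their median log2 ratio was 0.28, below the 0.51 of all measured genes, while their summed ratio of 1.23 (1.17 to 1.28) was near the 1.21 of all measured genes. Among assembly factors and regulators, the inhibitor gene Psmf1 had 27 and 56 reads (1.87-fold, 1.16 to 3.08), Akirin2, needed for nuclear import of the proteasome, 72 and 94 (1.18-fold, 0.857 to 1.62), and Psmg3, a chaperone of alpha ring assembly, 40 and 39 (0.879, 0.551 to 1.40). Pomp, the maturation factor of the core, named after its values were seen, had 402 and 474 reads (1.06-fold, 0.929 to 1.22).

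Of 8 measured genes whose products bind the proteasome, 2 were at least 2-fold higher. Ubqln2, a shuttle factor for ubiquitinated proteins, had 11 and 46 reads (3.77-fold, 1.92 to 8.07). Ube3c, a ubiquitin ligase on the proteasome, had 28 and 91 (2.93-fold, 1.90 to 4.65). The shuttle gene Rad23b had 109 and 222 (1.84-fold, 1.45 to 2.33). Usp14 had 0 and 0 reads, too few to give a ratio.

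The stress-inducible polyubiquitin gene Ubb had 284 and 367 reads (1.16-fold, 0.995 to 1.36), an interval that holds 1. In the list of the p97 segregase, which extracts ubiquitinated proteins, Faf1 had 34 and 92 reads (2.44-fold, 1.63 to 3.73), Nsfl1c 79 and 155 (1.77-fold, 1.34 to 2.35) and Vcp, p97 itself, 283 and 454 (1.45-fold, 1.24 to 1.68).

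The list of the NRF1 axis was mixed. Nfe2l1, the factor itself, had 1 and 1 reads (0.901, 0.0115 to 70.8) and could not be assessed. Ddi2, the protease that activates it, had 10 and 42 reads (3.79-fold, 1.87 to 8.46), and Nfe2l2, encoding the related factor NRF2, 78 and 175 (2.02-fold, 1.54 to 2.68). On the log2 measure used for counts of genes, which adds 1 to each normalised count, Nfe2l2 fell just short of 2-fold. It is therefore not counted as 2-fold higher. Mafg, encoding a small partner protein of both factors, had 58 and 33 (0.513, 0.324 to 0.800). The 7 measured genes of this list had a median log2 ratio of 0.16.

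**Figure D5:**
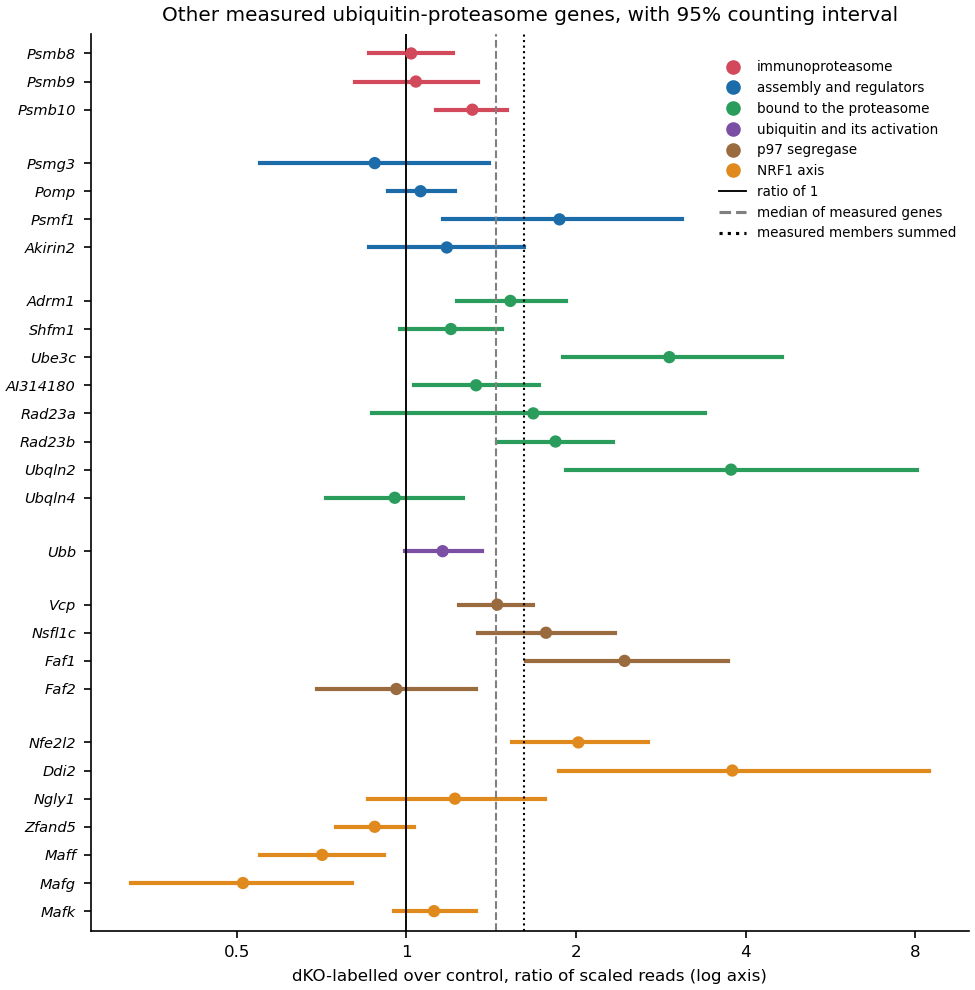
Ratio of scaled reads in the dKO-labelled over the control library (horizontal log axis) for the 27 other measured ubiquitin-proteasome genes, coloured by list, with 95% counting intervals and the same vertical lines as for the subunits. The immunoproteasome genes lie left of the dashed median of 1.44, and the genes spread on both sides of 1, from Mafg at 0.513 to Ddi2 at 3.79.

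Other measured differences stand beside these results. Stromal markers were higher in the dKO-labelled library: 22 and 186 reads over 5 fibroblast genes (4 of 5 detected in each library, Dcn at 0 in both) and 36 and 170 over 5 smooth muscle genes (4 and 5 detected, Myh11 at 0 in the control). Proliferation and crypt markers had 17 and 72 reads (3 and 4 of 4 detected, Olfm4 at 0 in the control), immune markers 131 and 219 (6 and 7 of 8 detected, Ptprc at 0 in both and Cd3e in the control), and endothelial markers 4 and 25 (2 and 4 of 4 detected, Cdh5 and Vwf at 0 in the control). Markers of enteric neurons and glia had 40 and 27 (3 and 4 of 4 detected, Elavl4 at 0 in the control). Their part in the proteasome values was not tested. Xist had 80 and 1 reads and the Y-linked Ddx3y 0 and 131, so sex and genotype label cannot be told apart.

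In the authors' deposited table, which compares 1 library with 1, the smallest unadjusted p-value of a member was 0.230, for Psmb2 (deposited fold change 3.18), and 0 of 34 were under 0.05, against 1.65% of measured genes. An exact binomial comparison of the reads, which sets library against library, called 30 members higher (50.2% of measured genes) and 1 lower (11.6%). Scaling sets where 0 lies: with an upper-quartile scaling 21 of the 34 members were above 0, with edgeR's TMM 27, and with total reads 30. Set against the measured genes, the members' median stayed between 0.28 and 0.33 under these scalings. A scaling shifts all genes of a library alike, so this difference could hardly move and its stability is no check. With a different filter it was 0.68 (low genes kept) or 0.44 (a mean of at least 100).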

How the data were processed

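Villus RNA was converted to libraries with a TruSeq RNA v2 kit, per the labels' protocols, and the reads were processed with TopHat and DESeq on build mm9, per the submitters' processing notes. The counter, tool versions and use of strand were not given in the sources used here. Signal values as deposited are normalised counts (base means, per the file headers) for 22040 transcripts. Every value is a whole multiple of the smallest of its column (100% within 0.001 of a step; 1.0533 in the control against 0.9494 in the dKO-labelled library), so reads were recovered as steps minus 1, on the reading, stated nowhere in the labels, that 1 read had been added to each row. The deposited ratio, log2 and p-value columns are the authors' DESeq comparison.

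The main measure was log2((dKO-labelled + 1)/(control + 1)) of the deposited normalised counts. Printed ratios are ratios of reads divided by the ratio of size factors (1.11), with 95% Clopper-Pearson intervals. Genes with a mean of at least 20 were measured, and 2-fold was the size rule. With 1 library per genotype no test between genotypes was possible, and the exact binomial comparison sets library against library only. Full ratios are given for the highest and lowest gene of each subunit group, catalytic, deubiquitinase, ubiquitin receptor and activator genes, targeted genes, immunoproteasome genes, Nfe2l1 and up to 3 genes per other list with the largest absolute log2 ratio. Further genes that are singled out, such as Psmb4, Psmd1 and Psmd3, were named after their values were seen. The members and lists were chosen with earlier results of these data known, and some listed genes are not reported here and were left out of the counts of their lists. Alternatives were other scalings, pseudocounts, filters and size rules, and an exact binomial comparison of reads. RefSeq tables (GRCm38.p6) and GENCODE M21 differ from mm9 and gave names, lengths, overlaps and promoter windows alone. Ratio and interval functions were tested on simulated data. Python 3.11.15 (pandas 2.3.3, numpy 2.4.6, scipy 1.17.1, matplotlib 3.10.9) and edgeR 4.0.16 in R 4.3.3 (TMM) were used.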

Additional observations from a re-analysis of the deposited data

How the results depend on the processing

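Each genotype had 1 library, so no replicate could be left out. No paired analysis was possible because each arm is a single library. Absolute ratios followed the scaling, which shifts every log2 ratio by about -0.30 (total reads), -0.69 (upper quartile) or -0.52 (TMM). Members at least 2-fold higher numbered 5, and 1 (total reads), 0 (upper quartile), 1 (TMM) and 1 (median of measured genes set to 0) under other scalings, 3 at a mean of at least 100 and 1 when the counting interval had to lie beyond 2-fold. Members at least 2-fold lower numbered 0, and 1 (Psmd13) with the upper quartile. An exact binomial test on the reads with no size rule, added after seeing the data, called 30 members higher and 1 lower, and 3013 and 698 of 6001 genes; it compares the libraries alone. The members' median log2 ratio of 0.79 became 0.49, 0.11, 0.28 and 0.28 with total reads, upper quartile, TMM and the median set to 0. Relative to the measured genes the difference of 0.28 became 0.68 when low genes were kept and 0.44 when a mean of 100 was required, which changes the genes compared.

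By group, the median log2 ratios with total reads were 0.61 (alpha), 0.50 (beta), 0.44 (ATPases), 0.52 (lid) and 0.24 (activators). With the upper quartile they were 0.21, 0.11, 0.05, 0.14 and -0.15 in the same order, and 0.16 for Psmd1. The chaperone value with the upper quartile, -0.04, was that of Psmd9 alone, with Psmd5 at -0.44. With TMM they were 0.39, 0.28, 0.22, 0.31 and 0.03, and 0.34 for Psmd1. With the median set to 0 they were 0.40, 0.29, 0.23, 0.31 and 0.03, 0.34 for Psmd1 and -0.07 for the chaperones. The other ubiquitin-proteasome genes at least 2-fold higher, 4 in number, were 1 (upper quartile), 2 (TMM) and 2 (median set to 0), and those lower, 0 in number, were 1, 2, 2 and 1 with total reads, upper quartile, TMM and the median set to 0. With a pseudocount of 5, summed rows and the added read removed, 4, 5 and 5 members were 2-fold higher. Depth limits Psmd5 most, at 19 and 25 reads.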
